A study of Homo sapiens with 6 samples.

Results

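The mRNAs of 9 cytosolic heat-shock chaperones and co-chaperones and of HSF1, the transcription factor that switches most of them on under stress, were followed in an esophageal squamous cell carcinoma (ESCC) line with and without KEAP1. The 10 genes (HSPA1A, HSPA1B, HSPA8, HSP90AA1, HSP90AB1, HSPH1, HSPB1, DNAJB1, BAG3 and HSF1) were taken by symbol from 58884 gene identifiers, and each symbol stood on 1 row. RNA was sequenced from 3 libraries of KYSE450, an ESCC line with wild-type NRF2, and from 3 libraries of KEAP1null-KYSE450, the line made from it with CRISPR-Cas9. Both lines were grown untreated in RPMI1640 with serum and antibiotics, so no heat or drug stress was applied. KEAP1null-KYSE450 is a single-cell clone, and differences of that clone from the parental population other than KEAP1 cannot be told apart from the loss of KEAP1. Nothing in the labels says that the 3 libraries of a line came from separate cultures, so p-values measure only the spread between these libraries, which may be technical.

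Chaperones hold newly made or damaged proteins in a state from which they can fold. HSP70 proteins bind exposed hydrophobic stretches in cycles of ATP hydrolysis that J-domain proteins start and nucleotide exchange factors end, and HSP90 takes over clients such as kinases and steroid receptors near the end of folding. In unstressed cells HSF1 is kept inactive by chaperones, and unfolded protein releases it to bind heat-shock elements, inverted repeats of the unit GAA, in chaperone promoters. KEAP1 is the adaptor through which NRF2, the main regulator of antioxidant genes, is marked for degradation.

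The line labels were first checked in the same libraries. KEAP1 mRNA had 5760, 5226 and 5146 normalized counts (reads divided by the size factor of the library) in KYSE450 libraries 1 to 3, numbered by their order in the matrix, and 5737, 4906 and 5317 in KEAP1null-KYSE450, so its level did not separate the lines. NQO1 and GCLM, textbook targets of NRF2, were 6.48-fold and 10.3-fold higher in KEAP1null-KYSE450. The 4 libraries whose reads were accepted as recovered from the matrix held between 53027359 and 61543442 reads. All 8 squamous epithelial markers reached a mean of 10 normalized counts and all were called, 6 lower and 2 higher, against detection of 1 of 6 fibroblast, 0 of 5 immune and 2 of 4 endothelial markers. The squamous markers summed to between 317722 and 446292 in KYSE450 and between 566286 and 710604 in KEAP1null-KYSE450, most of it KRT5 (log2 fold change 1.46), while KRT14 was at 2401 ± 283 and 34.5 ± 6.33 and KRT6A at 71578 ± 9059 and 2738 ± 257. The fibroblast markers summed to between 622 and 853 in KYSE450 and between 349 and 436 in KEAP1null-KYSE450, nearly all of it COL1A1, and the endothelial markers to between 59.9 and 74.8 and between 48.0 and 70.6. PECAM1 was at 0 in every library. The share of counts on mitochondrial genes was between 2.04% and 2.83% in KYSE450 and between 3.92% and 4.65% in KEAP1null-KYSE450. The part of these differences in the chaperone results was not tested.

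All 10 genes had a lower mean in KEAP1null-KYSE450, and 8 of them passed an adjusted p of 0.05 by limma with Benjamini-Hochberg adjustment over 16701 genes. Over all genes tested 25.5% were called lower and 24.3% higher. The median log2 fold change of the 10 genes was -0.66, against 0.0041 over all genes tested. Highly expressed genes leaned the same way: of the 3558 other genes with a mean at least that of the lowest member, 41.6% were called lower and 13.2% higher, with a median of -0.19. Only HSP90AA1 also passed an absolute log2 fold change of 1, which 5.98% of all genes did in the lower and 12.2% in the higher direction. In 9 of the 10 genes every KEAP1null-KYSE450 library lay below every KYSE450 library, as in 29.3% of genes tested. In bulk RNA, fewer cells that express a gene and less RNA of it per cell cannot be told apart.

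**Figure D1:**
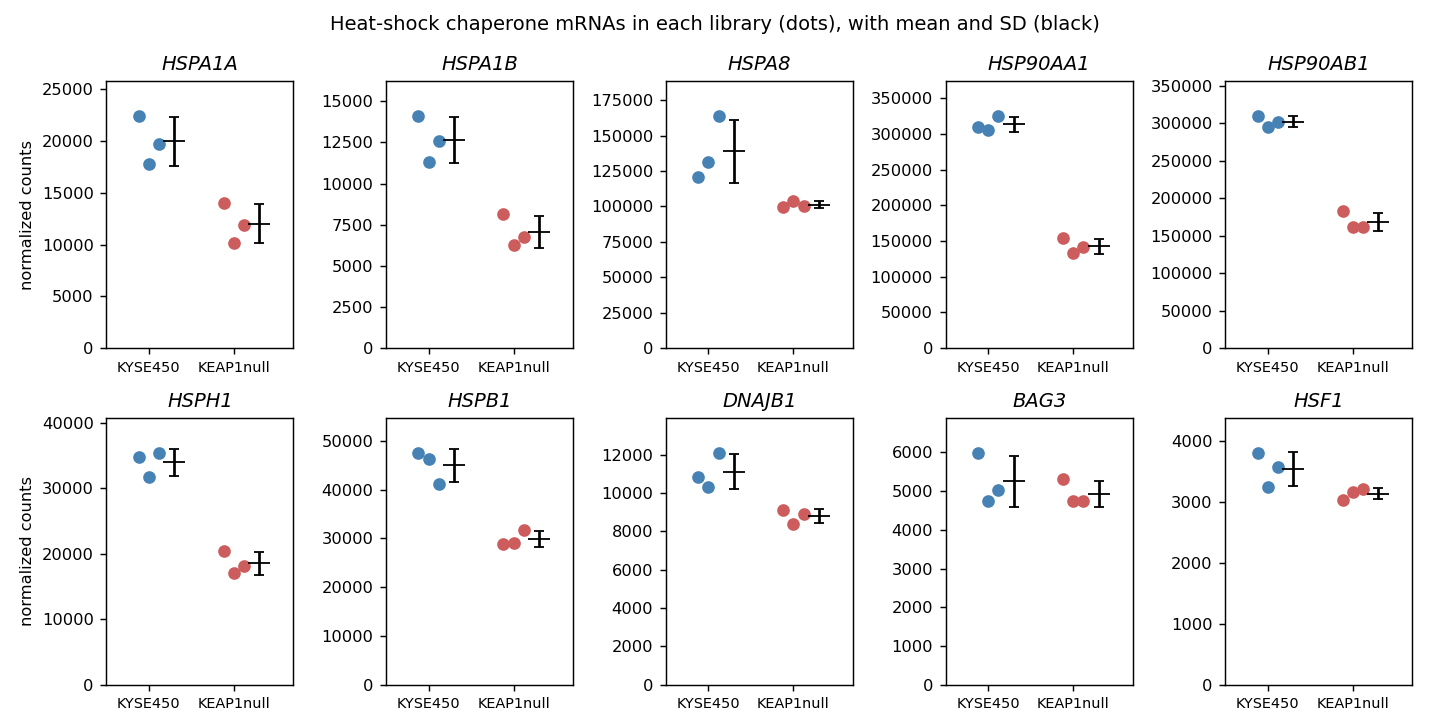
Normalized counts of the 10 genes (vertical axes, each from 0), with a dot for each of the 3 KYSE450 libraries in blue and the 3 KEAP1null-KYSE450 libraries in red, and the mean with its SD in black. The red dots lie below the blue dots in every panel but that of BAG3, where 5320 in a KEAP1null-KYSE450 library lies above 4737 and 5024 in KYSE450 libraries.

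The promoter windows that RefSeq gives for GRCh38.p14, from 250 bases before to 50 bases after the start, were searched for heat-shock elements in 9 of the 10 genes. For each gene only the 1 window nearest the start of its main transcript was used. HSP90AA1 has 2 windows and HSP90AB1 and DNAJB1 have 3 each, and their other windows were left out. The shares over all windows count every window of a gene. An element of 2 units (GAANNTTC or TTCNNGAA, where N is any base) was found in 6 of the 9, and in 13.5% of the 35116 windows in the table. Elements of 3 units, in which an element of 2 units is followed after any 2 bases by the next unit in the opposite direction, were found in HSPA8 and HSP90AA1, and in 0.490% of all windows. On the opposite strand each pattern reads as itself or as the other of its pair, so both strands were covered. The core of the antioxidant response element, TGACNNNGC, was found in 1 of the 9 windows on either strand, that of HSPB1, after its start, and in 13.3% of all windows. Stretches from 130 to 31 bases before the start are shown because they hold most of these matches in the genes that fell, with the matched bases in capitals. They lie at chr6:31815413-31815512 (plus strand), chr6:31827608-31827707 (plus strand), chr11:123062167-123062266 (minus strand), chr14:102087075-102087174 (minus strand) and chr19:14518428-14518527 (minus strand).
HSPA1A: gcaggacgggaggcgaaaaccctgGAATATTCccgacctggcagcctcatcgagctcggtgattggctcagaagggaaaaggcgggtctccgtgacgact
HSPA1B: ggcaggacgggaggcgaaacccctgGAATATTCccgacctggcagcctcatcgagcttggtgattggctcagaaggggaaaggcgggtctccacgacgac
HSPA8: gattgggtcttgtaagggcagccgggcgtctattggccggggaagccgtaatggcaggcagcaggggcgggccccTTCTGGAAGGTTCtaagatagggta
HSP90AA1: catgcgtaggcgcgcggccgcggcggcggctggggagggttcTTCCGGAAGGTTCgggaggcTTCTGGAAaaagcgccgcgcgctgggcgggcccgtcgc
DNAJB1: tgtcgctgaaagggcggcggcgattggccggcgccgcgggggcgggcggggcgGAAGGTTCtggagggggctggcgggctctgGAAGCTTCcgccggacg

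HSPA1A and HSPA1B show the same matched bases, GAATATTC, in nearly the same surroundings. The windows used for HSP90AB1, HSPH1 and BAG3 held none of these patterns. The start that RefSeq gives for HSPH1 lies 484 bases from the start of the main transcript used here. A match is a description of letters in a window, and no binding was measured in these libraries.

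HSP90 itself showed the largest difference among the 10 genes. HSP90AA1 (ENSG00000080824, chr14:102080742-102139699 in hg38), the inducible cytosolic HSP90, had 309343, 305950 and 325624 normalized counts in KYSE450 and 154137, 133126 and 141726 in KEAP1null-KYSE450. All 3 KEAP1null-KYSE450 libraries were at about the same level, far below the lowest KYSE450 library. Its mean fell by 54.4%, from 313639 ± 10517 to 142996 ± 10563 (SD, n = 3), or by 1.14 on the log2 scale (standard error 0.126; limma, adjusted p = 1.36e-05). Ranked among the 28799 genes above 0, it went from place 4 to place 34.

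HSP90AB1 (ENSG00000096384, chr6:44246166-44253888), the constitutive cytosolic HSP90, had 309644, 294981 and 301452 normalized counts in KYSE450 and 182167, 161438 and 161878 in KEAP1null-KYSE450. The groups did not overlap, and KEAP1null-KYSE450 library 1 was the highest of its line. The mean fell by 44.2% (log2 fold change -0.84, standard error 0.126, adjusted p = 0.000149, limma). After quantile normalization its log2 fold change was -1.36. Together the pair took between 1.07% and 1.09% of all normalized counts in KYSE450 and between 0.537% and 0.604% in KEAP1null-KYSE450. All 10 genes took between 1.53% and 1.60% and between 0.870% and 0.943%.

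The ratio of HSP90AA1 to HSP90AB1 counts within a library was 0.999, 1.04 and 1.08 in KYSE450 and 0.846, 0.825 and 0.876 in KEAP1null-KYSE450. The ratios did not overlap between the lines. An exact two-sided permutation test gave p = 0.10, the smallest that 3 against 3 libraries allow (adjusted p = 0.15 over the 3 ratios computed, which were chosen after the values were seen).

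HSPA8 (ENSG00000109971, chr11:123057489-123063230), the constitutive HSP70 of the cytosol, had 120887, 131467 and 163856 normalized counts in KYSE450 and 99298, 103759 and 100449 in KEAP1null-KYSE450. KYSE450 library 3 stood above the rest of its line, while the KEAP1null-KYSE450 libraries lay close together and below all of KYSE450. The mean fell by 27.1% (log2 fold change -0.44, standard error 0.131, adjusted p = 0.0137, limma). Without KYSE450 library 3 the log2 fold change was -0.32 (adjusted p = 0.052) and the call was lost, as it was without KEAP1null-KYSE450 library 3 (adjusted p = 0.056) and in edgeR on 4 libraries (adjusted p = 0.12).

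HSPA1A (ENSG00000204389, chr6:31815543-31817946) and HSPA1B (ENSG00000204388, chr6:31827738-31830254) encode the stress-inducible HSP70, each in a single exon. HSPA1A had 22448, 17772 and 19696 normalized counts in KYSE450 and 13979, 10198 and 11947 in KEAP1null-KYSE450. HSPA1B had 14117, 11313 and 12589 in KYSE450 and 8171, 6290 and 6778 in KEAP1null-KYSE450. Both genes were highest in library 1 and lowest in library 2 of each line, and neither overlapped between the lines. HSPA1A fell by 39.7% (log2 fold change -0.74, standard error 0.125, adjusted p = 0.000406, limma), and HSPA1B fell by 44.1% (log2 fold change -0.84, standard error 0.117, adjusted p = 8.45e-05, limma).

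The values of the 2 genes are uncertain one by one, because their transcripts are near copies. Of the 1926 coding bases 4 differ, so 99.8% are identical, and 69.6% of the 150-base windows of HSPA1A also occur in HSPA1B. How reads that fit both were counted is not given in the sources used here. Their sum does not depend on how reads were split between them, although reads dropped for fitting both would be missing from it. It was 36565, 29085 and 32285 in KYSE450 and 22150, 16488 and 18725 in KEAP1null-KYSE450. The sums did not overlap, and together they fell by 0.78 on the log2 scale (standard error 0.124; limma, adjusted p = 0.000255). HSPA1A made up between 61.0% and 63.8% of the sum in every library of both lines. Another annotated gene, ENSG00000285565, covers 36.6% of the HSPA1B exon on the same strand and was at 0 counts. If reads over 2 genes were left out in counting, that 0 cannot show whether HSPA1B reads were lost.

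The sum of the inducible pair relative to HSPA8 was 0.302, 0.221 and 0.197 in KYSE450 and 0.223, 0.159 and 0.186 in KEAP1null-KYSE450, with overlap (exact two-sided permutation p = 0.30, adjusted p = 0.30 over the 3 ratios). In KYSE450 the ratio was highest in library 1, where HSPA8 was lowest and HSPA1A and HSPA1B were highest.

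HSPH1 (ENSG00000120694, chr13:31134973-31162388), an HSP110 protein that acts as nucleotide exchange factor of HSP70, had 34777, 31689 and 35478 normalized counts in KYSE450 and 20478, 17052 and 18226 in KEAP1null-KYSE450. Each library of KEAP1null-KYSE450 lay well below the lowest of KYSE450. The mean fell by 45.3% (log2 fold change -0.87, standard error 0.102, adjusted p = 2.14e-05, limma). HSPH1 relative to HSPA8 was 0.288, 0.241 and 0.217 in KYSE450 and 0.206, 0.164 and 0.181 in KEAP1null-KYSE450, without overlap (exact two-sided permutation p = 0.10, adjusted p = 0.15 over the 3 ratios).

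DNAJB1 (ENSG00000132002, chr19:14514769-14560391), the J-domain partner of HSP70 also called HSP40, had 10864, 10336 and 12114 normalized counts in KYSE450 and 9102, 8407 and 8918 in KEAP1null-KYSE450. The lines did not overlap, but the gap between 10336 and 9102 was smaller than the spread within KYSE450. The mean fell by 20.7% (log2 fold change -0.33, standard error 0.094, adjusted p = 0.0108, limma). Without KEAP1null-KYSE450 library 2 the log2 fold change was -0.30 and missed the threshold (adjusted p = 0.060), as it did after quantile normalization (-0.14) and in edgeR (-0.36) and DESeq2 (-0.39) on 4 libraries.

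BAG3 (ENSG00000151929, chr10:119651380-119677819), a co-chaperone that links HSP70 to autophagy, had 5990, 4737 and 5024 normalized counts in KYSE450 and 5320, 4747 and 4730 in KEAP1null-KYSE450. The groups overlapped, with 1 high library in each. The log2 fold change was -0.09 with a 95% interval from -0.32 to 0.15 (adjusted p = 0.53, limma), and it was 0.014 without KYSE450 library 1 and 0.068 after quantile normalization.

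HSPB1 (ENSG00000106211, chr7:76302673-76304295), the small heat-shock protein HSP27, which holds unfolded proteins without ATP, had 47601, 46186 and 41219 normalized counts in KYSE450 and 28800, 28985 and 31723 in KEAP1null-KYSE450. The lines were clearly separate, and library 3 was the lowest of KYSE450 and the highest of KEAP1null-KYSE450. The mean fell by 33.7% (log2 fold change -0.59, standard error 0.101, adjusted p = 0.000420, limma).

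HSF1 (ENSG00000185122), the regulator of the group, had 3803, 3247 and 3561 normalized counts in KYSE450 and 3027, 3154 and 3213 in KEAP1null-KYSE450. The highest KEAP1null-KYSE450 library, 3213, lay just under the lowest KYSE450 library, 3247. The log2 fold change was -0.17 with a 95% interval from -0.38 to 0.03 (adjusted p = 0.15, limma), and the test did not call it. After quantile normalization it was -0.033 (adjusted p = 0.79, limma). Of the exon bases of its main transcript, 6.42% lie opposite exons of other genes, and whether strand was used in counting is not given in the sources used here. The mRNA level does not show the activity of HSF1, which is set after translation.

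**Figure D2:**
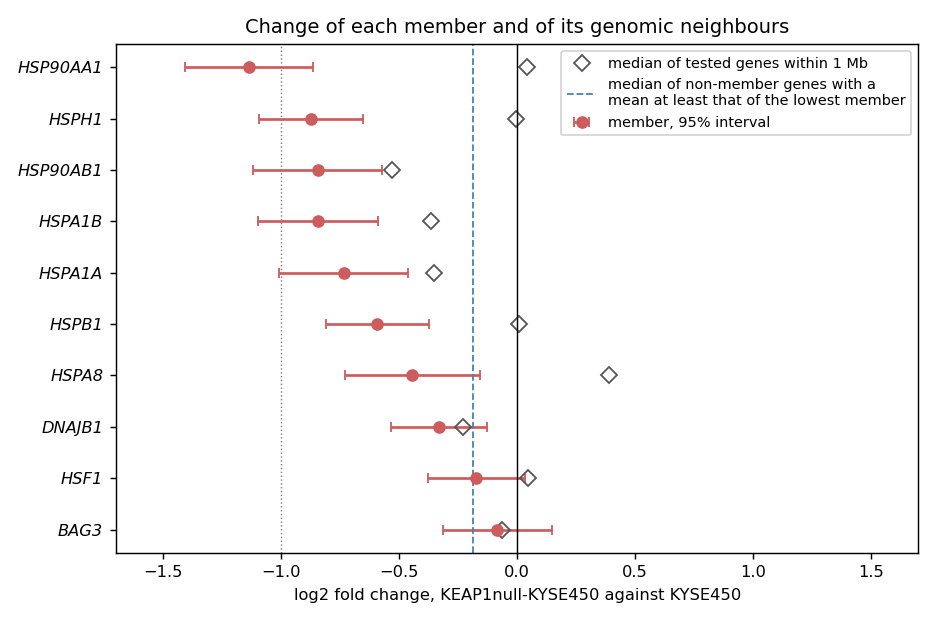
Log2 fold change of each gene, KEAP1null-KYSE450 against KYSE450 (horizontal axis; red dots with 95% intervals), with the median of the tested genes within 1 Mb (open diamonds), the median of non-member genes with a mean at least that of the lowest member (dashed line, -0.19) and a log2 fold change of -1 (dotted line). HSP90AA1 is lowest at -1.14, while its neighbours have a median of 0.04, and the intervals of BAG3 and HSF1 cross 0.

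Each library was also set against the mean of its line in the 10 genes. In KYSE450, library 1 lay above the line mean on the log2 scale in 7 of the 10 genes, library 2 in 1 and library 3 in 5. In KEAP1null-KYSE450 the counts were 7, 2 and 4. The same counts were not made over all genes, so they do not show whether the 10 genes moved together. The median deviation of a library from its line's mean was at most 0.11 on the log2 scale, in KEAP1null-KYSE450 library 1.

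Where the genes lie was looked at because neighbouring genes on some chromosomes were lower in KEAP1null-KYSE450. HSPA1A, HSPA1B and HSP90AB1 are on chromosome 6, where the median over 875 tested genes was -0.13 on the log2 scale. Around HSP90AB1, 18 of 25 tested genes within 1 Mb were called lower (72.0%), with a median of -0.53, and 8 of the 25 lay below HSP90AB1 itself. Around HSPA1A, 29 of 62 were called lower (46.8%), with a median of -0.35, and 18 of the 62 lay below the gene. The part of a shared change of these stretches in the values of the 3 genes was not tested.

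The other genes were set beside their neighbours in the same way. HSP90AA1 had 18 tested neighbours with a median of 0.04, of which 1 lay below it. HSPH1, with 6 neighbours (median -0.0042), and HSPA8, with 5 (median 0.39), had none below them. For HSPB1 the median of 21 neighbours was 0.0066, and 3 lay below it. DNAJB1, at -0.33, was close to the median of its 37 neighbours, -0.23, and 14 of them lay below it. BAG3 (13 neighbours, median -0.07) and HSF1 (73 neighbours, median 0.05) were within the range of theirs.

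**Figure D3:**
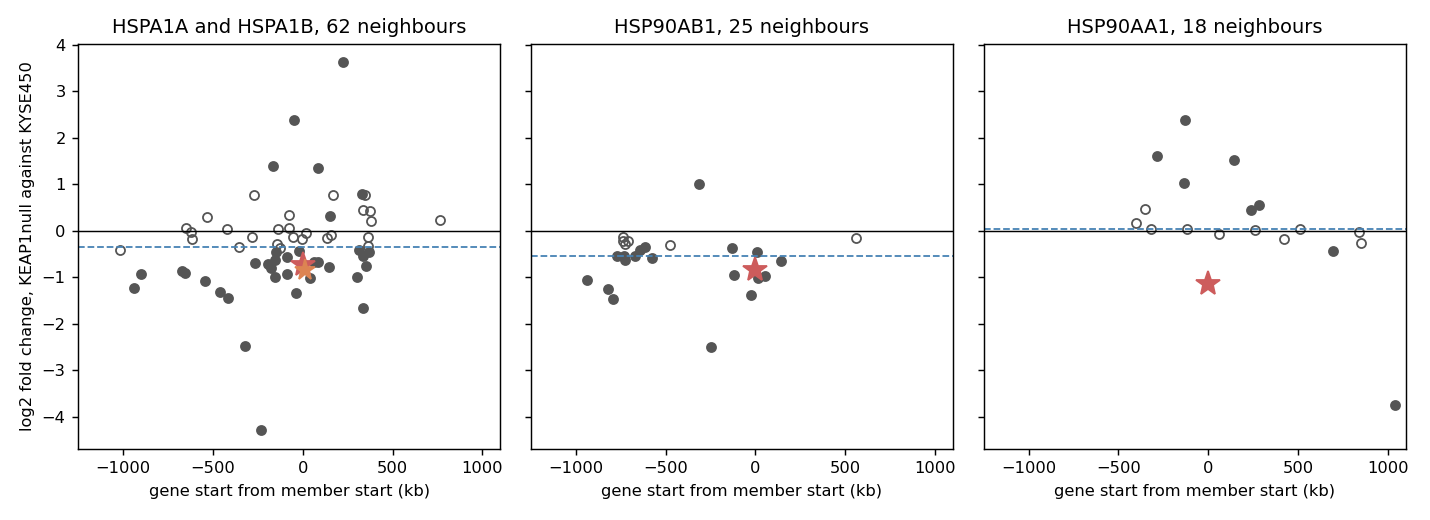
Log2 fold change of tested genes within 1 Mb of 3 members (vertical axis) against the distance of their start from that of the member in kilobases, with filled dots for genes with an adjusted p under 0.05, open dots for the rest, stars for members (HSPA1B in orange) and a dashed line at the neighbours' median. Around HSP90AB1 18 of 25 neighbours were called lower, and around HSP90AA1 2 of 18 were.

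Levels of different genes were compared as normalized counts per kilobase of the main transcript. In KYSE450 HSP90AB1 was highest at 118210 ± 2876 (SD, n = 3), above HSP90AA1 at 97162 ± 3258, with no overlap. HSPA8 at 61280 ± 9889 and HSPB1 at 57918 ± 4313 followed and overlapped each other. After them came HSPA1A at 8322 ± 979, HSPH1 at 6480 ± 384, and HSPA1B at 5035 ± 558 and DNAJB1 at 4953 ± 407, which overlapped. BAG3 at 2050 ± 256 and HSF1 at 1657 ± 131 were lowest and did not overlap.

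In KEAP1null-KYSE450 HSP90AB1 was still highest at 65947 ± 4635, and HSP90AA1 at 44299 ± 3272 overlapped HSPA8 at 44686 ± 1023. HSPB1 came next at 38399 ± 2107, and HSPA1A followed at 5017 ± 788. DNAJB1 at 3929 ± 161 stood beside HSPH1 at 3544 ± 332, which it overlapped, and above HSPA1B at 2813 ± 388. BAG3 at 1926 ± 131 and HSF1 at 1467 ± 44.6 were again last. Per kilobase of all annotated exons HSPA1B stood above HSPH1 and BAG3 above DNAJB1 in both lines. In KEAP1null-KYSE450 DNAJB1, at 1076, then lay below HSPH1 (2215) and HSPA1B (2813), and HSP90AA1 (28055) lay above HSPA8 (20864). The order of those genes depends on the transcript taken. The places of HSPA1A and HSPA1B also depend on how reads that fit both were counted, which is not given in the sources used here.

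**Figure D4:**
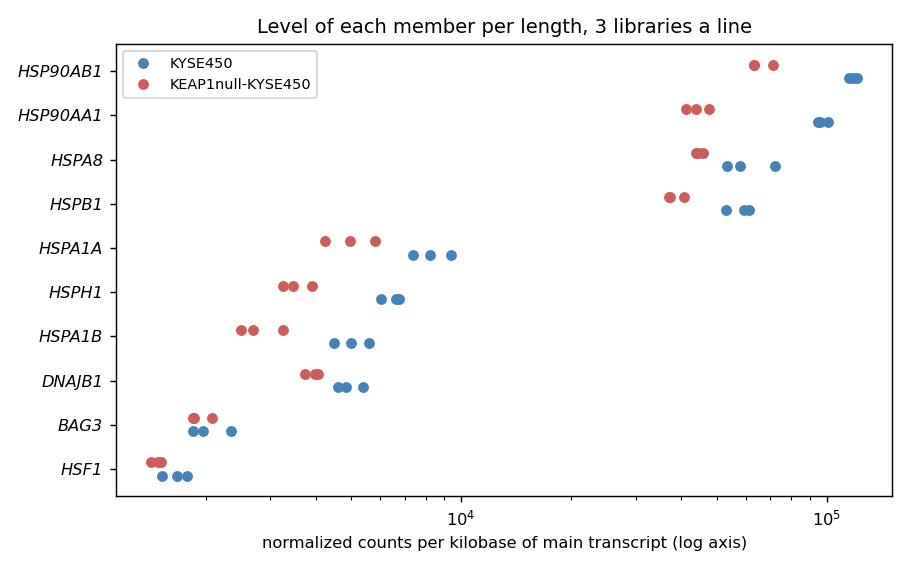
Normalized counts per kilobase of main transcript (horizontal log axis) of the 10 genes, with 1 dot a library, blue for KYSE450 and red for KEAP1null-KYSE450. HSP90AB1, HSP90AA1, HSPA8 and HSPB1 lie between 37066 and 121191, and the other 6 genes lie between 1418 and 9353.

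The wider chaperone network was read from lists of related genes. Over all 16701 genes tested 25.5% were called lower and 24.3% higher. Of the 3558 non-member genes with a mean at least that of the lowest member, 41.6% were called lower and 13.2% higher. All 8 subunits of the chaperonin TRiC, the cytosolic ring that folds actin and tubulin, were called lower, with a median log2 fold change of -0.53. TCP1 fell from 66367 ± 4112 to 39046 ± 1091 normalized counts (-0.76), CCT6A from 110556 ± 6249 to 65206 ± 2608 (-0.76) and CCT3 from 77781 ± 7208 to 45822 ± 1069 (-0.76). Around CCT3 68.1% of tested genes within 1 Mb were also called lower. On the reads of 4 libraries edgeR called 3 of the 8, and limma on the normalized counts of the same libraries called 5.

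Co-chaperones of HSP90 were called lower in 8 of 11 cases and higher in none (25.5% and 24.3% over all genes tested). Their median log2 fold change was -0.46. FKBP4, a peptidyl-prolyl isomerase of the steroid receptor complex, fell from 55419 ± 1428 to 24992 ± 1777 (log2 fold change -1.15). CHORDC1 fell by 0.83 on the log2 scale, and FKBP5, another isomerase of receptor complexes, by 0.73. Within 1 Mb, 50.0% of 18 tested genes around FKBP4 and 46.2% of 26 around FKBP5 were called lower. Around CHORDC1 0 of 3 were called lower, and their median was 1.23. The other 3 co-chaperones were not called. On the reads of 4 libraries edgeR called 5 of the 11.

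The co-chaperones of HSP70 were mixed, with 2 of 8 called lower and 1 higher and a median of -0.11. BAG6, which guards newly made membrane proteins, had a log2 fold change of -0.80, and 51.4% of tested genes within 1 Mb of it on chromosome 6 were called lower. HSPBP1, a nucleotide exchange factor, had -0.77, while BAG2, an inhibitor of the ubiquitin ligase CHIP, had 0.66. Around HSPBP1 33.3% of 33 tested genes within 1 Mb were called lower, and around BAG2 5 of 10 were called higher. The other 5 co-chaperones were not called. The share called lower is near that over all genes tested, 25.5%.

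Among the other HSP70 family genes 2 of 8 tested were called lower and 2 higher, close to the shares of 25.5% and 24.3% over all genes tested. HSPA4L, an HSP110 relative, fell from 4163 ± 271 to 2166 ± 61.7 normalized counts (log2 fold change -0.94). HSPA4, the other called lower and named to complete the count, had -0.55. HSPA12A rose from 1064 ± 55.6 to 2449 ± 114 (1.20) and HSPA2 from 293 ± 15.3 to 450 ± 45.5 (0.61). Within 1 Mb, 5 of 8 tested genes around HSPA12A (median 0.87) and 15 of 22 around HSPA2 (median 0.75) were called higher. Around HSPA4L 33.3% of 9 and around HSPA4 27.3% of 22 were called lower. The part of a shared change of these stretches in the values of the genes was not tested. HSPA6, an HSP70 that is nearly silent without stress, had 19.4 ± 13.0 counts in KYSE450 and 6.61 ± 1.81 in KEAP1null-KYSE450 and was not called (-1.27, adjusted p = 0.093, limma).

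Of 14 other J-domain genes 8 were called lower and 2 higher (25.5% and 24.3% over all genes tested), with a median of -0.36. DNAJA4 fell from 3933 ± 380 to 1980 ± 85.0 normalized counts (log2 fold change -0.99), DNAJB2 had -0.68 and DNAJB6, which suppresses aggregation, had -0.64. The 2 called higher were DNAJB4 (0.62) and DNAJB14 (0.46), named to complete the count. Within 1 Mb, 6 of 11 tested genes around DNAJB14 (median 0.87) and 2 of 12 around DNAJB4 (median 0.14) were called higher. Around DNAJA4 11.8%, around DNAJB2 20.6% and around DNAJB6 28.6% were called lower.

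**Figure D5:**
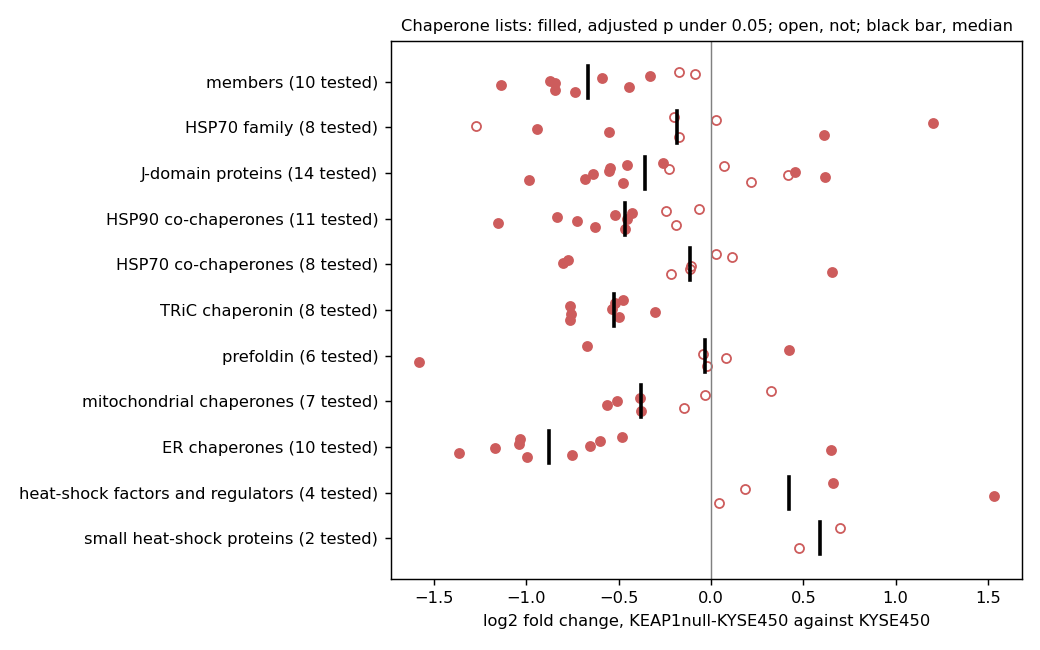
Log2 fold change, KEAP1null-KYSE450 against KYSE450 (horizontal axis), of the tested genes of each chaperone list (rows), filled where the adjusted p was under 0.05 and open where it was not, with a black bar at the median. The median is -0.66 for the 10 heat-shock genes, -0.53 for TRiC and -0.87 for the chaperones of the endoplasmic reticulum. It is above 0 for the other heat-shock factors (4 tested, 2 not called). It is also above 0 for the small heat-shock proteins, of which only 2 of 8 were tested and neither was called.

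Prefoldin, which hands unfolded actin and tubulin to TRiC, differed between subunits. PFDN2 fell from 6871 ± 217 to 2304 ± 169 normalized counts (log2 fold change -1.58) and PFDN6 from 5619 ± 152 to 3532 ± 233 (-0.67), while 3 of 6 were not called. PFDN5 was called higher (0.43), but its groups overlapped, with 11506 in KEAP1null-KYSE450 library 1 and 11937 in KYSE450 library 3. That call was lost without the trend, in edgeR, DESeq2 and limma on 4 libraries, and without KYSE450 library 1 or KEAP1null-KYSE450 library 2 or 3. Around PFDN2 48.4% of tested genes within 1 Mb were called lower, and around PFDN6 44.7% were. Around PFDN5 16 of 48 were called higher. Small heat-shock proteins other than HSPB1 were nearly silent: 2 of 8 reached a mean of 10, neither was called, and 4 were at or under the floor of 3 reads in all libraries.

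In the endoplasmic reticulum 9 of 10 were called lower and 1 higher (25.5% and 24.3% over all genes tested), with a median of -0.87. HYOU1, an HSP110 relative there, fell from 18016 ± 3064 to 7128 ± 2079 normalized counts (log2 fold change -1.36), DNAJB11 from 3659 ± 296 to 1642 ± 333 (-1.17), the calcium-binding chaperone CALR from 32826 ± 399 to 16105 ± 2499 (-1.04) and PDIA4 from 12267 ± 1350 to 6067 ± 1321 (-1.03). Within 1 Mb, 34.2% of tested genes around HYOU1, 11.8% around DNAJB11, 26.5% around CALR and 22.7% around PDIA4 were called lower. DNAJB9, a J-domain protein of the same compartment, was the 1 called higher (0.65), and 3 of 11 tested genes around it were called higher. KEAP1null-KYSE450 library 1 was the highest of its line in all 9 that fell, for example in HSPA5, the main HSP70 there, with 37082 against 25686 and 26105 normalized counts. Without that library 9 were called lower and 1 higher. In mitochondria 4 of 7 were called lower and none higher, led by HSPA9 (-0.56), TRAP1 (-0.51) and GRPEL1 (-0.38), and edgeR on 4 libraries called 0. Around HSPA9, TRAP1 and GRPEL1, 21.4%, 33.3% and 6.67% of tested genes within 1 Mb were called lower.

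Of 4 other heat-shock factors and binding partners 2 were called higher and none lower (24.3% and 25.5% over all genes tested). HSF4, a factor best known from the lens, rose from 139 ± 33.2 to 398 ± 52.7 normalized counts (log2 fold change 1.53), and HSF2BP, which binds HSF2, rose from 62.3 ± 9.17 to 99.5 ± 19.3 (0.66). The other 2 were not called. Without the filter on low values, and in edgeR, DESeq2 and limma on 4 libraries, 1 of the 4 was called higher. The same held without KYSE450 library 1 or 3 or KEAP1null-KYSE450 library 2 or 3, and HSF2BP itself was near the threshold (adjusted p = 0.046, limma). The levels of HSF4 and HSF2BP were far below that of HSF1, before any correction for length. Within 1 Mb, 12 of 56 tested genes around HSF4 and 4 of 23 around HSF2BP were called higher.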

How the data were processed

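RNA sequencing of 3 KYSE450 and 3 KEAP1null-KYSE450 libraries was analysed. The matrix deposited by the authors gives each gene a signal, its normalized count, in each library. The submitters' processing notes name FastQC 0.11.5, cutadapt 1.12, STAR 2.6.90c, featureCounts 1.5.1, and hg38 beside mm10. A RefSeq annotation is named in the methods, but the matrix has Ensembl identifiers, so the annotation used for counting is unsure. The division by size factors left whole reads, within 0.1 read, for 100% of values. In 2 libraries 1 read is worth 1.01 normalized counts, which fell short of a limit set here for its distance from 1. Those 2 were left out by that limit alone, although their values also gave whole reads. Reads were accepted and used in the other 4. There 3 reads were between 2.77 and 3.21 normalized counts.

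limma (version 3.58.1, R 4.3.3, eBayes with trend, two-sided) was run on log2 of the normalized count plus 1, over the 16701 genes whose mean reached 10, with Benjamini-Hochberg adjustment. Fold changes are on that scale, and genes were called at an adjusted p under 0.05. On simulated data for this comparison it recovered 187 of 200 changed genes with 8 false calls among 16701. The planted changes were all of 1 or more on the log2 scale, with the same spread setting for every gene. Far fewer genes were changed there than were called in these data, and recovery of smaller changes was not tested. edgeR 4.0.16 (quasi-likelihood, TMM) and DESeq2 1.42.0 were run on the recovered reads. Positions and transcripts are from gencode v44 (hg38). The members and lists were chosen with earlier results of these data known. Genes named from a list were those called, up to the 3 with the largest change, and any that moved by 1 or more on the log2 scale. HSPA4, DNAJB4, DNAJB14, DNAJB9 and HSPA5 were named outside this rule, after their values were seen. Alternatives were other pseudocounts, filters and normalizations, eBayes without trend, and leaving out each library. Limma on 4 libraries and the ratios were added after the data were seen.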

Additional observations from a re-analysis of the deposited data

How the results depend on the processing

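Of 16 alternative settings, HSP90AA1, HSP90AB1, HSPA1A, HSPA1B, HSPH1 and HSPB1 were called lower in all 16, and HSPA8 and DNAJB1 in 11 each. HSPA8 was not called without the filter on low values (-0.44), in edgeR (-0.46) or in limma on the same 4 libraries (-0.47), and lay between -0.54 and -0.32 with 1 library left out. DNAJB1 was not called after quantile normalization (-0.14), in edgeR (-0.36), DESeq2 (-0.39) or limma on 4 libraries (-0.39), and lay between -0.38 and -0.27 with 1 library left out. BAG3 turned to 0.068 after quantile normalization and lay between -0.16 and 0.014 with 1 library left out. The number of members called lower was between 6 and 8, and 2 passed both thresholds after quantile normalization. With a mean of at least 100, which left 12341 genes to test in place of 16701, 875 were higher past both thresholds, against 2045. On 4 libraries edgeR called 2472 genes lower, DESeq2 2732 lower and 2617 higher, and limma 2558 lower and 2655 higher. The main fit called 4251 and 4060. Of these, only limma on 4 libraries differed from the main fit in the libraries alone. Genes called higher were 67.2% of those past both thresholds, 51.8% after quantile normalization and 56.2% with a mean of at least 100.

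The median of the neighbours was -0.52 within 2 Mb of HSPA1A and of HSPA1B. Within 0.5 Mb it was 0.86 for HSPA8, 0.31 for HSP90AA1, -0.79 for HSP90AB1, -0.18 for HSPB1, -0.35 for DNAJB1 and -0.23 for BAG3. Of 320 list counts under other settings, 28 moved by more than 1.5 times or went to or from 0. In edgeR on 4 libraries, genes called lower were 5 of the HSP90 co-chaperones, 3 of TRiC and 0 of the mitochondrial chaperones; limma on 4 libraries called 5 of TRiC. Genes called higher came to 0 in prefoldin without the trend and in all 3 tools on 4 libraries (0 to 1 with 1 library left out), and to 0 in the endoplasmic reticulum in those 3 tools. Among heat-shock factors 1 was called higher without the filter and in those 3 tools (1 to 2 with 1 library left out). With a mean of at least 100 it was also 1, but HSF2BP did not reach that mean and was not tested there. Mitochondrial chaperones called higher were 1 after rescaling and after quantile normalization (0 to 1 with 1 library left out), and HSP70 co-chaperones called higher were 2 after quantile normalization. The cause was not tested. No paired analysis was possible because the columns of the matrix carry no replicate number.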
